A study of Oryctolagus cuniculus with 27 samples.

Results

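The P4-ATPase phospholipid flippases are described here in rabbit aortic valve, ascending aorta and left ventricular myocardium, as 9 member genes out of 31346 genes counted. The members were given by symbol: the flippases ATP10A, ATP10D, ATP8A1, ATP8B1, ATP8B2, ATP8B4, ATP11A and ATP11B, and TMEM30A, which encodes their accessory subunit. All 9 are listed in each of the 3 tissue tables. ATP10A was chosen by its higher level after 2 weeks of diet, and ATP8B4 by its higher level after 4 weeks, so those 2 differences are given as descriptions without a test.

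The study fed male, wild-type New Zealand rabbits a diet holding 1% cholesterol together with ergocalciferol (vitamin D2, 3500 IU), or normal chow, as a model of early aortic valve stenosis. Each valve library came from 1 cusp. Valve libraries numbered 4 for each of control and diet at 2, 4 and 7 weeks, aorta libraries 2 from diet and 3 from control animals, and myocardium libraries 3 from diet and 3 from control animals. The duration of diet is not given for aorta or myocardium. The age of the control valves is uncertain, because the design text names 2 and 4 weeks and the sample titles name 7 weeks for 3 libraries and 2 weeks for 1. The age of the animals in life is not given in the sources used here, and each library name within a tissue carries its own animal number.

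Flippases are membrane pumps that use ATP to move phospholipids from the outer to the inner leaflet of a membrane. They keep phosphatidylserine and phosphatidylethanolamine on the cytosolic side, while scramblases let lipids run in both directions and ABC transporters export them. Phosphatidylserine that reaches the outer surface marks dying cells for uptake by macrophages, supports clotting, and is carried on the matrix vesicles from which mineral grows in bone and in calcifying vessels. Most flippases leave the endoplasmic reticulum only when bound to the TMEM30A product. The substrates named in this text are known from human and mouse proteins. Protein and promoter sequences of these rabbit genes were not used here.

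Library totals ran from 8458453 to 19998954 counts in valve, 11509616 to 16107428 in aorta and 13954438 to 17322373 in myocardium. Levels are given as CPM, read counts scaled to a common library size, after TMM scaling of all 27 libraries together. They are not divided by gene length, so levels are compared between libraries and never between genes. The tissue labels were checked against marker genes. Smooth muscle markers took 5.33% to 6.43% of the counts in aorta libraries, and cardiomyocyte markers took 7.72% to 11.01% in myocardium libraries. In valve libraries, cardiomyocyte markers took from 0.120% to 4.15% of the counts, so heart muscle RNA was present in all of them. Summed atrial markers (4 genes) ran from 0.591 to 449 CPM at 2 weeks, 195 to 6733 CPM at 4 weeks and 408 to 4088 CPM at 7 weeks, against 3.48 to 13.7 CPM in control valves. In aorta they ran from 112 to 122 CPM on diet and 0.787 to 2.05 CPM in controls. In myocardium they ran from 18.7 to 153 CPM on diet and 2.03 to 4.11 CPM in controls. The library of 7-week valve replicate 2 was the shallowest of all, and 5 of the 9 members had their lowest valve level in it. It also had the highest summed cardiomyocyte markers of the valve libraries, at 45651 CPM. Whether depth or heart muscle bears on its low values was not tested. Library names show that the 3 diet myocardium libraries and 3 of the 7-week valve libraries come from the same animals, as do 2 control myocardium and 2 control valve libraries, and 1 diet aorta and 1 valve library at 2 weeks. The names also end in a number after the letter S. In valves it is 1 to 4 at 7 weeks, 27 to 30 at 2 weeks, 31 to 34 in controls, and 21 and 36 to 38 at 4 weeks. The labels do not say what this number stands for. Any difference in handling that it marks cannot be told apart from the 7-week group, nor in full from the other valve groups.

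ATP10A, a flippase of the plasma membrane that moves phosphatidylcholine and glucosylceramide, was higher in valves at 2 weeks than in control valves. In control valves ATP10A was at 23.6, 25.3, 28.7 and 22.2 CPM, and at 2 weeks at 68.5, 58.9, 78.9 and 58.5 CPM. At 4 weeks it was at 23.03, 19.8, 34.04 and 29.5 CPM, and at 7 weeks at 22.8, 10.7, 19.5 and 20.01 CPM. All 4 libraries at 2 weeks stood above all 4 control libraries, while both later groups overlapped the controls. The log2 fold change at 2 weeks minus control was 1.41 ± 0.20 (SE), or 2.66-fold, which is the contrast that chose the gene. The 10.7 CPM at 7 weeks belongs to replicate 2, the valve library that was shallowest and highest in cardiomyocyte markers.

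**Figure D1:**
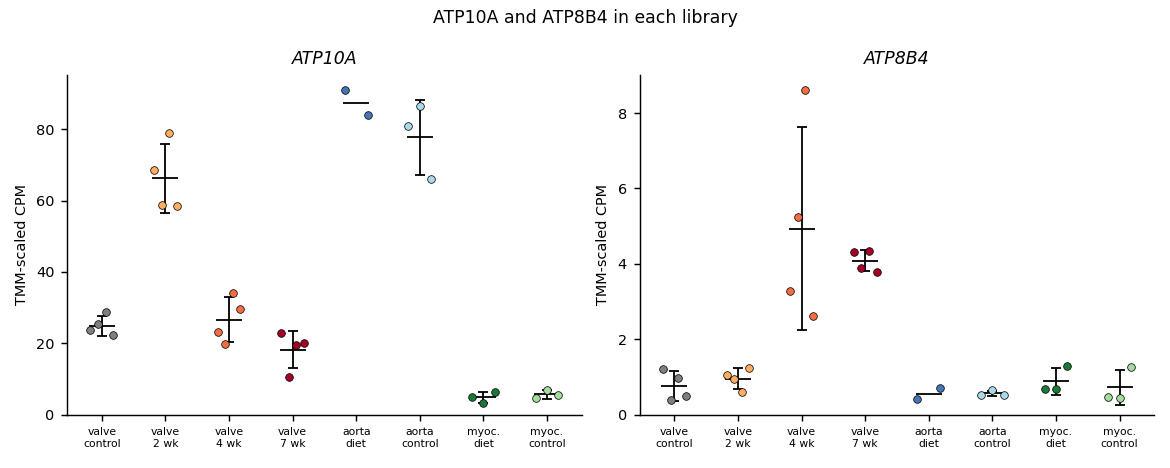
Levels of ATP10A (left) and ATP8B4 (right) in TMM-scaled CPM in each of the 27 libraries, by tissue and group; points are libraries, horizontal bars are means and whiskers are the SD where a group has more than 2 libraries. ATP10A stands at 58.5 to 78.9 CPM in valves at 2 weeks and at 22.2 to 28.7 CPM in control valves, while ATP8B4 stands at 2.61 to 8.61 CPM at 4 weeks and 3.79 to 4.33 CPM at 7 weeks.

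From 2 weeks to the later times ATP10A was lower again, by a log2 fold change of -1.32 ± 0.20 at 4 weeks minus 2 weeks and -1.83 ± 0.21 at 7 weeks minus 2 weeks. Both values use the 2-week libraries that chose the gene, so they too are given without a test. Of the ATP10A contrasts between valve groups, 7 weeks minus 4 weeks used libraries outside the choice. There the log2 fold change was -0.51 ± 0.20 (edgeR adjusted p = 0.377), with averages of 18.2 ± 5.2 CPM at 7 weeks and 26.6 ± 6.4 CPM at 4 weeks (SD, n = 4 each).

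The aorta had the highest ATP10A levels of the 3 tissues and the myocardium the lowest. Diet aortas had 91.0 and 83.9 CPM, and control aortas 80.9, 86.4 and 66.0 CPM. The diet and control aortas overlapped, with a log2 fold change of 0.14 ± 0.14 (edgeR adjusted p = 0.702). Diet myocardium had 4.86, 3.30 and 6.23 CPM, and control myocardium 4.55, 7.01 and 5.51 CPM, which also overlapped (log2 fold change -0.24 ± 0.32, edgeR adjusted p = 0.938). In order of their medians the groups ran diet aorta, control aorta, valve at 2 weeks, valve at 4 weeks, control valve, valve at 7 weeks, control myocardium and diet myocardium. Adjacent groups in this order overlapped, except that valves at 2 weeks stood above those at 4 weeks and valves at 7 weeks above control myocardium. Valves at 2 weeks differed from control aortas by a log2 fold change of -0.23 ± 0.22, a comparison chosen after the data were seen. It uses the 2-week libraries that chose ATP10A for its high level, so it is given without a test. In the control libraries, ATP10A was lower in valve than in aorta by a log2 fold change of -1.64 ± 0.17 and higher in aorta than in myocardium by 3.76 ± 0.21 (edgeR adjusted p = 1.07e-06). The valve comparison uses the 4 control valve libraries that also entered the choice of ATP10A, so it is given without a test.

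Smooth muscle markers were set beside ATP10A. The 8 smooth muscle genes summed to between 19183 and 31329 CPM in control valves, 24504 and 43759.8 CPM at 2 weeks, 12738 and 25165 CPM at 4 weeks, and 8299 and 12971 CPM at 7 weeks. At 2 weeks 0 of the 8 passed the edgeR test against control, with 2 at an unadjusted p under 0.05 and 1 called lower by DESeq2, and the median log2 fold change of the list was 0.58. Of all genes, edgeR called 0.025% there and DESeq2 called 965 genes. Relative to that sum, ATP10A was at 0.0807% to 0.138% in control valves, 0.156% to 0.240% at 2 weeks, 0.117% to 0.181% at 4 weeks and 0.0971% to 0.241% at 7 weeks. The 2-week ratios stood above all control ratios, and they overlapped those at 4 and 7 weeks, whose medians were 0.163% and 0.173% beside 0.183% at 2 weeks. The 2-week and control levels of ATP10A chose the gene, so nothing is read from the distance between their ratios. In aortas the same ratio was 0.134% in both diet libraries and 0.118% to 0.151% in control libraries. The part of smooth muscle cells in the ATP10A levels was not tested. In bulk RNA, fewer cells of a type and less RNA per cell cannot be told apart. Summed cardiomyocyte markers were also lower at 2 weeks, at 1159.7 to 5051 CPM against 7026 to 40513 CPM in control valves. With a cardiomyocyte score as a covariate, ATP10A at 2 weeks minus control was 1.09 ± 0.28, again from libraries that chose the gene and without a test. Since the summed markers did not overlap between these groups, the score and the group can be told apart only in part.

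The genes whose log2 CPM was most like that of ATP10A over the 16 valve libraries were PKD1 (polycystin, Pearson r = 0.98), SMURF1 (a ubiquitin ligase, 0.95), CSPG4 (a proteoglycan of pericytes and smooth muscle, 0.95), CTDSP2 (a phosphatase, 0.95) and SIPA1L3 (0.95). These are descriptions over libraries that share groups and dissection. All 5 had positive log2 fold changes at 2 weeks minus control, from 0.43 ± 0.14 for CTDSP2 to 0.93 ± 0.15 for PKD1, each smaller than that of ATP10A. They were picked by likeness to ATP10A in these same libraries, so the shared direction follows from the pick.

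ATP8B4, a flippase found in human white blood cells and less well studied than its relatives, was higher in valves at 4 and 7 weeks. It had 1.22, 0.381, 0.965 and 0.490 CPM in the 4 control valves. At 2 weeks it had 1.05, 0.941, 0.591 and 1.25 CPM, which overlapped the controls. At 4 weeks it had 3.29, 5.23, 8.61 and 2.61 CPM, and at 7 weeks 4.30, 3.90, 4.33 and 3.79 CPM. Every library at 4 or 7 weeks stood above every control and 2-week library. Counts behind these levels were low, from 58 to 179 reads per library at 4 weeks and 30 to 83 at 7 weeks, against 6 to 19 in controls.

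The difference at 4 weeks minus control, a log2 fold change of 2.67 ± 0.42 or 6.38-fold, is the contrast that chose ATP8B4. At 7 weeks minus 2 weeks none of the libraries had entered that choice. Here the log2 fold change of ATP8B4 was 2.10 ± 0.41, or 4.30-fold, with all 4 libraries at 7 weeks above all 4 at 2 weeks. At 7 weeks minus control it was 2.44 ± 0.42, or 5.43-fold, a contrast that shares the 4 control libraries with the choice. The 4-week group was more spread than the 7-week group, at 4.94 ± 2.69 and 4.08 ± 0.28 CPM (SD, n = 4 each), and 7 weeks minus 4 weeks gave a log2 fold change of -0.23 ± 0.38. ATP8B4 passed the filter on low counts in the valve fit only through the groups where it is high, so its valve differences are all given without a test.

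Outside the valve ATP8B4 was at 1.29 CPM or below and was too low for the tests within aorta and myocardium. Diet aortas had 0.417 and 0.694 CPM, and control aortas 0.524, 0.641 and 0.510 CPM. Diet myocardium had 0.682, 0.677 and 1.29 CPM, and control myocardium 0.464, 0.428 and 1.27 CPM. All of these libraries had at most 20 reads of the gene. In the joint fit, the diet effect in 7-week valve exceeded that in myocardium by 2.17 ± 0.69 on the log2 scale. The mean diet effect in valve exceeded that in aorta by 1.82 ± 0.66. Both values include libraries that chose the gene and are given without a test.

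Macrophage markers moved with ATP8B4. Of 14 tested, 11 rose at 4 weeks and 12 at 7 weeks against control (edgeR, adjusted over all genes), among them CD14, a lipopolysaccharide co-receptor, with log2 fold changes of 2.62 ± 0.47 at 4 weeks and 2.91 ± 0.47 at 7 weeks. At 2 weeks 0 of the 14 passed, with 0 at an unadjusted p under 0.05 and 0 called by DESeq2. The markers summed to 184 to 334 CPM in control valves, 132 to 258 at 2 weeks, 356 to 1523 at 4 weeks and 859.6 to 1257 at 7 weeks. Relative to this sum, ATP8B4 was at 0.201% to 0.471% in control valves, 0.364% to 0.637% at 2 weeks, 0.378% to 0.734% at 4 weeks and 0.301% to 0.504% at 7 weeks. The 4 ranges of the ratio overlapped one another, with medians of 0.286%, 0.466%, 0.491% and 0.425% in this order. The control ratios were 0.366%, 0.207%, 0.471% and 0.201%, so the overlap of control with 4 weeks rests on control replicate 3. For the level itself, control overlapped 2 weeks and 4 weeks overlapped 7 weeks, with both later groups above both others. No defining macrophage marker was at 0 in all libraries of any group. How far macrophages set the ATP8B4 level was not tested.

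**Figure D2:**
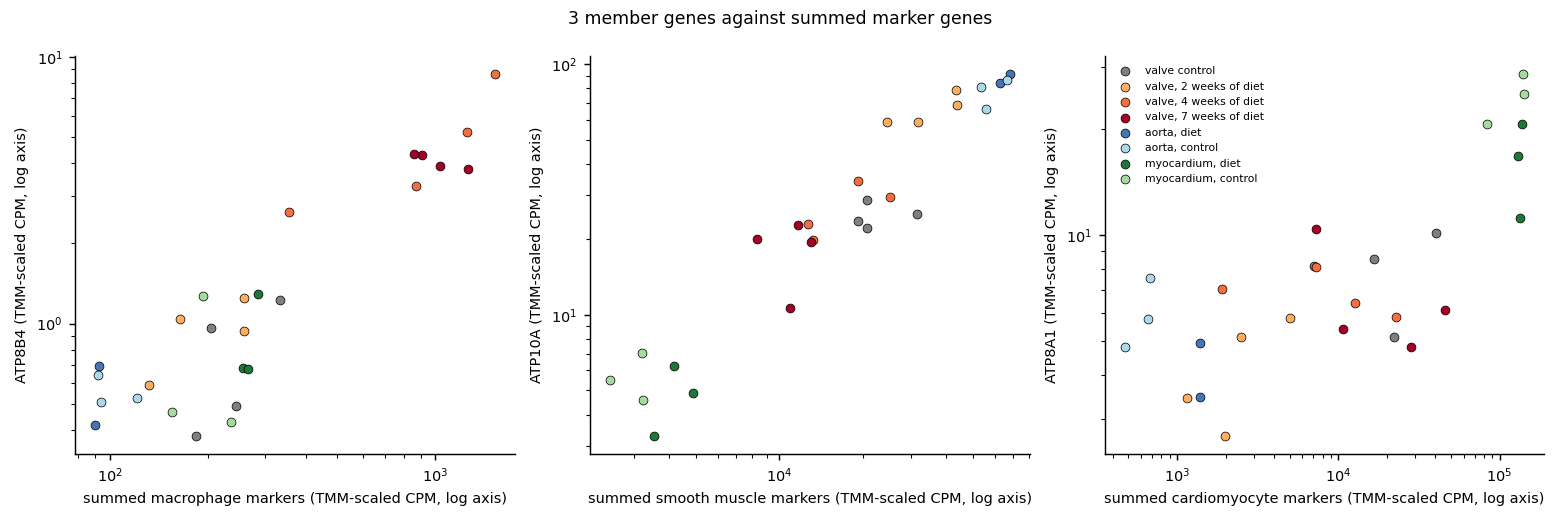
ATP8B4 against summed macrophage markers (left), ATP10A against summed smooth muscle markers (middle) and ATP8A1 against summed cardiomyocyte markers (right), in TMM-scaled CPM on log axes; each point is a library, coloured by tissue and group. Valves at 4 and 7 weeks lie at the top right for ATP8B4, and valves at 2 weeks lie close to the aortas for ATP10A.

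The 5 genes most like ATP8B4 over the 16 valve libraries were PTAFR (the receptor for platelet-activating factor, r = 0.97), MSR1 (a macrophage scavenger receptor for modified lipoproteins, 0.97), MPEG1 (a pore-forming protein of macrophages, 0.96), ARL11 (a small GTPase, 0.96) and CTSE (cathepsin E, a protease, 0.96). MSR1 is also in the macrophage list. At 4 weeks minus control these had log2 fold changes from 2.71 ± 0.59 for ARL11 to 3.65 ± 0.62 for CTSE. They were picked by likeness to ATP8B4 in these same libraries, so their rise follows from the pick.

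The members called in the valve are given beside the share of all genes called. At 2 weeks minus control 1 of 9 members was called, ATP10A itself, where 0.025% of all 15973 genes tested were called, 0.0188% higher and 0.00626% lower. At 4 weeks it was again 1 of 9, ATP8B4, against 2% of all genes, 1.94% higher and 0.0563% lower. At 7 weeks it was 1 of 9, ATP8B4, against 7.79%, 5.2% higher and 2.6% lower. Nothing is read from these 3 counts, since the choice used the first 2 contrasts and the third shares its control libraries with them. The median log2 fold change of the 9 members was 0.29 at 2 weeks, 0.05 at 4 weeks and -0.11 at 7 weeks, beside 0.02, -0.03 and -0.01 over all genes tested. At 7 weeks minus 4 weeks 0 of 9 members passed, with 1 (ATP10A) at an unadjusted p under 0.05 and 0 by DESeq2, against 0.1% of all genes. At 4 weeks minus 2 weeks the 2 chosen genes were called, against 4.36% of all genes, 3.14% higher and 1.23% lower. Both calls use libraries that chose these genes, so nothing is read from that count. At 7 weeks minus 2 weeks 3 of 9 were called, ATP8B4 higher and ATP10A and ATP11B lower, against 26.7% of all genes, 14.5% higher and 12.2% lower. Of these 3, ATP11B alone was not chosen by its valve values, and nothing is read from the count.

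**Figure D3:**
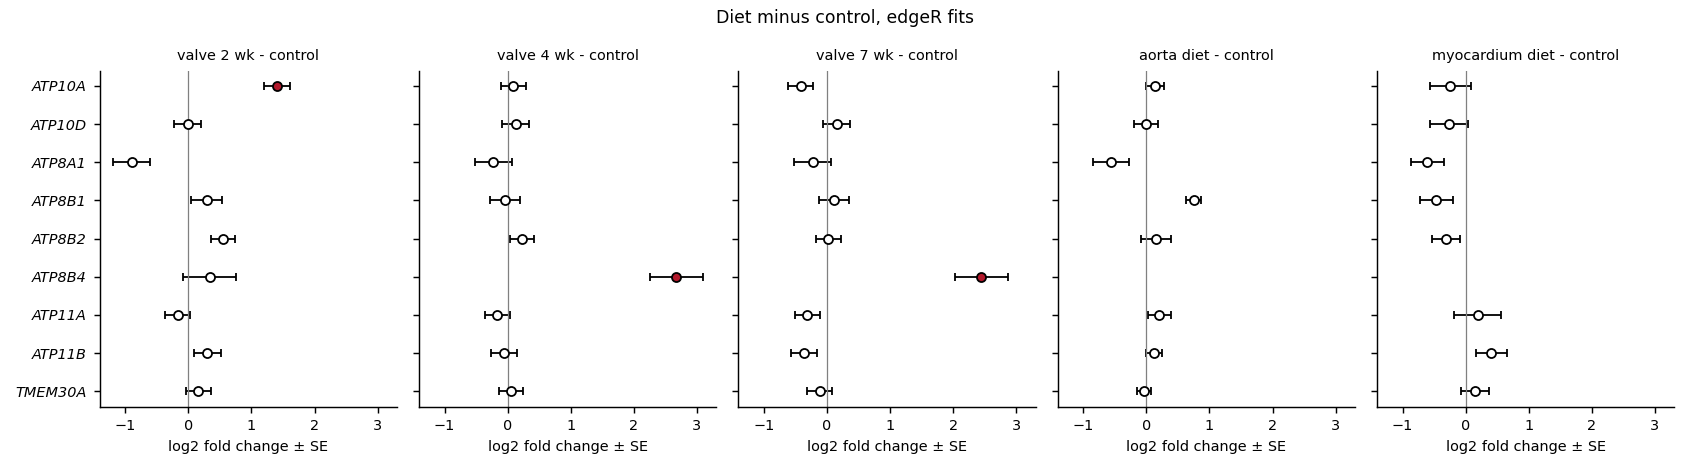
Log2 fold changes (± SE) of the 9 members for diet minus control by edgeR, in valve at 2, 4 and 7 weeks (a shared fit), aorta, and myocardium; filled circles passed an adjusted p of 0.05. ATP10A at 2 weeks and ATP8B4 at 4 weeks are the values that chose these genes, ATP8B4 is missing where it was too low to test, and ATP8B1 in aorta stands at 0.75 without passing.

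TMEM30A, the accessory subunit that most of these pumps need, showed no difference that passed between the valve groups. It ranged from 86.2 to 112 CPM in control valves, 93.3 to 130 at 2 weeks, 76.5 to 121 at 4 weeks and 57.2 to 122 at 7 weeks, so all groups overlapped. Against control, its log2 fold change was 0.16 ± 0.20 at 2 weeks, 0.05 ± 0.20 at 4 weeks and -0.11 ± 0.20 at 7 weeks, with 95% intervals within -0.50 to 0.54 (edgeR adjusted p from 0.748 to 0.953). In aorta it was at 92.7 and 97.7 CPM on diet and 89.3 to 106 CPM in controls. Its nearest genes over the 16 valve libraries were FNDC3A (r = 0.96), TMED7 (a cargo receptor of the early secretory pathway, 0.96), CCDC126 (0.95), FAM91A1 (0.95) and KBTBD2 (0.94).

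The flippases that carry phosphatidylserine and phosphatidylethanolamine are ATP8A1, ATP11A and ATP11B. ATP8A1, which acts in recycling endosomes, was at 5.14 to 10.2 CPM in control valves, 2.69 to 5.81 at 2 weeks, 5.85 to 8.12 at 4 weeks and 4.79 to 10.4 at 7 weeks. Its 2-week value was the lowest of the valve groups (log2 fold change -0.90 ± 0.30 against control, edgeR adjusted p = 0.132), with 3 of 4 libraries below every control. ATP8A1 was higher in control myocardium, at 20.8 to 28.7 CPM, than in control valves, at 5.14 to 10.2. Summed cardiomyocyte markers were also lower in valves at 2 weeks. Control aortas had 4.81 to 7.57 CPM of ATP8A1 beside marker sums of 474 to 685 CPM. Within control and 2-week valves, the library with the highest marker sum also had the highest ATP8A1, at 10.2 and 5.81 CPM. At 4 and 7 weeks the library with the highest sum had 5.85 and 6.11 CPM, against group maxima of 8.12 and 10.4. With the cardiomyocyte score as a covariate, ATP8A1 at 2 weeks minus control was -0.93, against -0.90 without it. The summed markers did not overlap between these groups, so the score and the group can be told apart only in part. How far heart muscle sets the ATP8A1 level was not tested. ATP11A, a plasma membrane flippase that caspases cleave in dying cells, had log2 fold changes of -0.17 ± 0.20, -0.17 ± 0.20 and -0.31 ± 0.20 at 2, 4 and 7 weeks.

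ATP11B, a flippase of endosomes and the Golgi, was lower at 7 weeks than at 2 weeks. It had 32.6, 13.8, 23.5 and 27.5 CPM at 7 weeks, against 39.9, 41.01, 44.1 and 32.99 CPM at 2 weeks, and the groups did not overlap. The log2 fold change was -0.67 ± 0.21 (edgeR adjusted p = 0.0284). The lowest value is again from 7-week replicate 2, the valve library that was shallowest and highest in cardiomyocyte markers. Without that library the change was -0.49 ± 0.17 with an edgeR adjusted p of 0.0611. Leaving out 7-week replicate 3 or any of 2-week replicates 1 to 3 also ended the call, with adjusted p of at most 0.0733. Scaling by library totals (adjusted p = 0.109) and a fit of the 2 groups alone (adjusted p = 0.0634) ended it too. With the cardiomyocyte score as a covariate the change was -0.45 ± 0.27 (edgeR adjusted p = 0.391). Summed cardiomyocyte markers did not overlap between 2 and 7 weeks, so here too score and group can be told apart only in part. Against control, ATP11B gave 0.30 ± 0.21 at 2 weeks and -0.37 ± 0.21 at 7 weeks, neither of which passed.

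The phosphatidylcholine flippases ATP8B1 and ATP8B2 and the glucosylceramide flippase ATP10D were tested against control at each time in the valve. ATP8B2 had 121, 131, 142 and 115 CPM at 2 weeks, against 93.2, 93.3, 94.9 and 68.0 CPM in control valves. The groups did not overlap, but the log2 fold change of 0.55 ± 0.19 gave an edgeR adjusted p of 0.156. At 7 weeks minus 2 weeks ATP8B2 was at -0.53 ± 0.19 with an edgeR adjusted p of 0.0531, and DESeq2 called it (adjusted p = 0.0264). ATP8B1, whose loss in humans causes inherited cholestasis, ranged from 49.3 to 68.7 CPM in control valves and overlapped them at each time. ATP10D stayed between 5.08 and 10.4 CPM in all 16 valve libraries, and its log2 fold changes from control lay between -0.01 and 0.15.

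**Figure D4:**
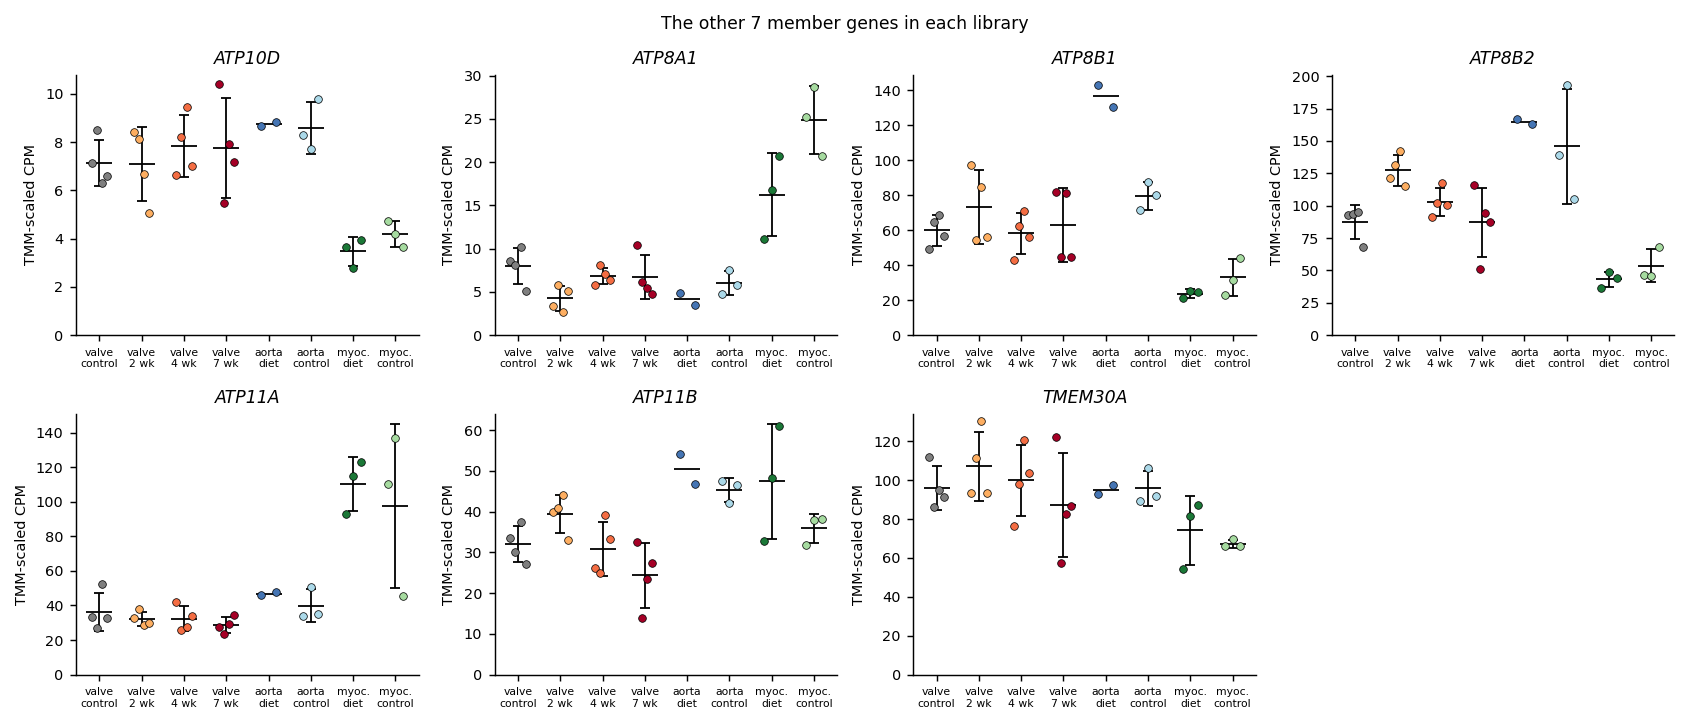
Levels of the other 7 members in TMM-scaled CPM in each library, by tissue and group; points are libraries, horizontal bars are means and whiskers are the SD where a group has more than 2 libraries. ATP8A1 and ATP11A are highest in myocardium, ATP8B1 is at 143 and 131 CPM in diet aortas, and TMEM30A overlaps across the valve groups.

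In the aorta, ATP8B1 had the log2 fold change of greatest size among the 8 members tested. It had 143 and 131 CPM in diet aortas, against 71.7, 87.6 and 80.1 CPM in control aortas. Both diet libraries stood above all 3 controls, by a log2 fold change of 0.75 ± 0.12. The edgeR adjusted p was 0.104, DESeq2 called it (adjusted p = 0.000104), and edgeR called it without control replicate 2 (adjusted p = 0.0424). The 2 diet aortas may differ in duration, and the difference from the mean valve effect, -0.67 ± 0.33, did not pass (edgeR adjusted p = 0.550). By edgeR 0 of 8 members passed in aorta, with 1 at an unadjusted p under 0.05, against 0.159% of all 14435 genes, 0.132% higher and 0.0277% lower. The other 7 had log2 fold changes between -0.56 and 0.20.

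In the myocardium 0 of 8 members passed the edgeR test and 0 passed DESeq2, with 1 at an unadjusted p under 0.05, against 0.0848% of all 14151 genes, 0.0424% in each direction. That 1 was ATP8A1, at 11.2, 16.8 and 20.7 CPM in diet myocardium and 25.2, 28.7 and 20.8 CPM in control myocardium. The groups did not overlap, though the closest values were 20.7 and 20.8 CPM, and the log2 fold change was -0.61 ± 0.26 (edgeR adjusted p = 0.562). Tests of the diet effect between tissues called 0 of 9 members for valve at 7 weeks against myocardium, with 2 at an unadjusted p under 0.05, and 0 of 9 for valve against aorta, with 1. DESeq2 called 0 in both. The 9 include ATP10A and ATP8B4, whose values here use libraries that entered their choice, so nothing is read from these counts. Of all genes, 0.423% were called in the first, 0.286% higher and 0.137% lower, and 0.0474% in the second, 0.0296% higher and 0.0178% lower.

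The members were also compared between the control tissues. Between control valve and control myocardium 7 of 9 members passed the edgeR test, against 46% of all genes, 23.4% higher and 22.5% lower. The 7 include ATP10A, whose control valve libraries entered its choice, so nothing is read from the count with valve. Between control aorta and control myocardium the same 7 passed, against 52.8%, 27% higher and 25.8% lower. ATP10A, ATP10D, ATP8B1, ATP8B2 and TMEM30A were higher in both vessel tissues than in myocardium, and ATP8A1 and ATP11A were lower. On leaving out 1 library, ATP8B2 lost its call between valve and myocardium in 5 of 7 cases, with adjusted p from 0.0719 to 0.139. TMEM30A lost it in 1 of 7 cases there (adjusted p = 0.0620) and in 3 of 6 between aorta and myocardium (up to 0.0781), where it was also lost with no filter (0.0545). ATP11A lost its call between aorta and myocardium in 1 of 6 cases (adjusted p = 0.0523). ATP8A1 was lower in valve than in myocardium by a log2 fold change of -1.64 ± 0.24 (edgeR adjusted p = 0.000530), and ATP11A by -1.43 ± 0.35 (edgeR adjusted p = 0.00695). A single control myocardium library stood apart for ATP11A, at 45.3 CPM beside 111 and 137 CPM. Between control valve and control aorta 3 of 9 were lower in valve and 0 higher, against 9.19% of all genes called lower and 13% higher (22.2% in all). Nothing is read from this count, which includes ATP10A in the control valves that entered its choice. The genes were ATP10A, ATP8B2 (-0.74 ± 0.23, edgeR adjusted p = 0.0446) and ATP11B (-0.50 ± 0.14, edgeR adjusted p = 0.0323). ATP8B2 lost its call when any 1 library was left out other than aorta replicate 3, and ATP11B when any was left out other than valve replicate 3. With another scaling, by library totals, the median of all genes moved by 0.14 on the log2 scale in this comparison and neither passed.

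**Figure D5:**
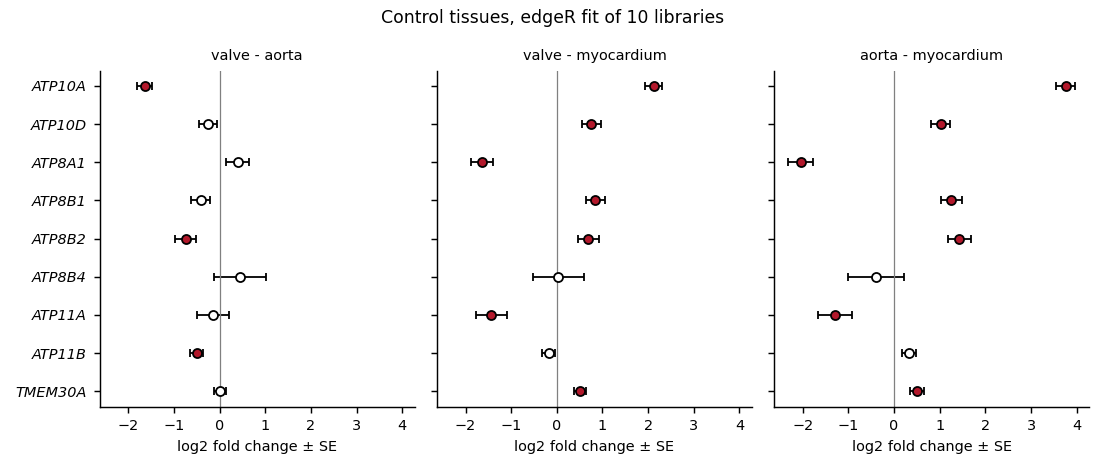
Log2 fold changes (± SE) of the 9 members between control tissues in the edgeR fit of 10 control libraries: valve minus aorta, valve minus myocardium, and aorta minus myocardium; filled circles passed an adjusted p of 0.05. ATP10A stands at -1.64, 2.12 and 3.76 in this order, and ATP8B4 passes in none of the 3. The ATP10A values with valve use control libraries that entered its choice.

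The members varied together to differing degrees over the 16 valve libraries. Pearson correlations of log2 CPM reached 0.85 between ATP11B and ATP8B2, 0.84 between ATP10A and ATP11B and 0.83 between ATP11B and TMEM30A. The lowest was -0.57, between ATP10A and ATP8A1, and ATP8B4 was at -0.48 with ATP10A. These libraries share groups, and the shallow library is low for several of these genes, so the values describe this set only.

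Of the 8 other family genes looked for, 6 were listed and 4 could be tested in the valve. ATP8A2, a phosphatidylserine flippase best known from neurons and photoreceptors, was highest in myocardium. It had 39.7, 25.03 and 53.7 CPM in diet myocardium and 27.03, 54.9 and 14.2 CPM in control myocardium, against at most 0.425 CPM in any aorta. In valves it was at 4.95, 1.14, 12.5 and 7.27 CPM in controls, 0.373 to 1.33 at 2 weeks, 0.625 to 2.11 at 4 weeks and 2.08 to 7.91 at 7 weeks. It rose at 7 weeks minus 2 weeks (2.65 ± 0.67, edgeR adjusted p = 0.0111), the same contrast in which summed cardiomyocyte markers were at 7302 to 45651 CPM at 7 weeks and 1159.7 to 5051 CPM at 2 weeks. How much of it came from heart muscle in the cusps was not tested. In the same contrast ATP9A, an endosomal member that needs no TMEM30A, fell (-0.51 ± 0.17, edgeR adjusted p = 0.0366). Without 7-week replicate 2 ATP8A2 was called and ATP9A was not. ATP9B was not called in any comparison, and ATP10B and TMEM30B were too low to test.

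Genes that act on the same lipids were tested in 4 lists. At 2 weeks the edgeR test passed 0 genes in each list. These were 15 scramblases, 8 genes listed as lipid exporters, 14 genes of flippase traffic and cleavage, and 19 genes of phosphatidylserine recognition and uptake. The exporter list also holds MFSD2A, which takes lysophosphatidylcholine into cells and is not an exporter. At an unadjusted p under 0.05 there were 4, 1, 2 and 7, and DESeq2 called 2, 1, 1 and 4. Of all genes at 2 weeks, edgeR called 0.025% and DESeq2 called 965 genes. The share of all genes at an unadjusted p under 0.05 is not given here, so nothing is read from those counts. At 4 and 7 weeks the same 3 recognition genes of 19 rose and 0 fell: TREM2, a lipid receptor of macrophages (log2 fold changes 3.08 ± 0.55 and 3.27 ± 0.56), HAVCR1, a phosphatidylserine receptor (2.79 ± 0.49 and 2.59 ± 0.48), and STAB1, a scavenger receptor (1.26 ± 0.28 and 1.49 ± 0.28). ABCG1, a cholesterol exporter of macrophages, was the exporter that rose at both times (1.81 ± 0.43 and 2.34 ± 0.44). VMP1, a scramblase of the endoplasmic reticulum, rose at 7 weeks (0.60 ± 0.15). Of all genes, 1.94% were called higher at 4 weeks and 5.2% at 7 weeks. The medians of the 4 lists at 7 weeks were -0.34, 0.43, -0.12 and 0.02 in the order above, beside -0.01 over all genes. The macrophage markers rose in the same libraries.

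Between 7 and 2 weeks the recognition list divided. Of 19 genes tested 3 rose, TREM2, HAVCR1 and STAB1, and 10 fell, against 14.5% of all genes called higher and 12.2% called lower. The 10 included AXL, a receptor kinase that binds phosphatidylserine through a bridging protein (-0.75 ± 0.14, edgeR adjusted p = 0.00207). Of 15 scramblases 4 fell, among them ANO6, the scramblase of platelets (-0.56 ± 0.11), and ANO10 (-0.97 ± 0.19), and VMP1 rose (0.73 ± 0.15). Of 8 genes in the exporter list 3 rose and 0 fell. They were the exporters ABCG1 (2.14 ± 0.43) and ABCA7 (1.38 ± 0.43), and the importer MFSD2A (2.47 ± 0.58). Of 14 genes of flippase traffic and cleavage 2 fell, ARL1 and MON2, which act at the Golgi, and 0 rose. DESeq2 also called 0 genes of the exporter list lower and 0 traffic genes higher. Without 7-week replicate 2, 3 recognition genes rose and 8 fell, and 3 scramblases fell and 1 rose. In that fit 2 genes of the exporter list rose and 2 traffic genes fell, against 2720 of all 16212 genes tested called in either direction. In the same contrast 7 of 8 smooth muscle markers fell and 1 rose, with and without that library, and their part in these counts was not tested.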

How the data were processed

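RNA was sequenced from valve cusps, aorta and myocardium as 100 bp single-end reads of a directional kit, per the labels' protocols. The submitters' processing notes name STAR 2.7.8a and RSEM 1.3.3, with Trim Galore 0.6.6, FastQC 0.11.9 and edgeR 3.42.4 besides. Build, annotation and strand setting are not given in those sources, so reads of a gene and of an antisense partner cannot be told apart. The authors deposited expected counts per gene, 1 full table per tissue and a valve table without genes taken as myocardial, which was used as an alternative. Of the valve values 10.1% were not whole, and all were rounded.

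Each comparison was fitted on the whole table with edgeR 4.0.16 in R 4.3.3: filterByExpr (minimum count 10, minimum total 15), TMM scaling and the two-sided quasi-likelihood F test, adjusted by Benjamini-Hochberg over all genes tested, called below 0.05. All 16 valve libraries entered a single fit. SE is the log2 fold change divided by the square root of F, and intervals are 1.96 SE. DESeq2 1.42.0 and limma 3.58.1 served for alternatives. On simulated data over 15770 genes the valve fit at 4 weeks minus control recovered 67 of 100 genes changed by 1.5 on the log2 scale and 94 of 100 changed by 2.5. No per-sample column was left unused.

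The members, the gene lists and the rule for named genes were chosen with earlier results of these data known. The rule names all members, the other family genes, up to 3 called genes of smallest adjusted p per list, and the 5 genes most correlated with ATP10A, ATP8B4 and TMEM30A. A gene that the rule names is not reported here. Depth limits ATP8B4 most. Replicates of a group differed beyond counting noise. Reads are not molecules, since no molecular identifiers are named.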

Additional observations from a re-analysis of the deposited data

Results flagged for a closer look

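Of 36 sets of 4 valve libraries, 1 for each member and valve group, 1 held a library far from the other 3. ATP8B2 was at 68.0 CPM in control valve replicate 4, against 93.2 to 94.9 CPM in the other 3 control valves, which lie close together. The gap was 0.936 of the range, above Dixon's 95% critical value for 4 samples, which chance exceeds in about 1 in 20 such sets.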

How the results depend on the processing

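Over 1766 recomputed values, 1713 stayed on their side of the threshold or within their spread, 36 lost a call, 6 gained one, 11 moved, and 0 called values changed sign, while 96 values that were not called changed sign. In this tally ATP10A at 2 weeks and ATP8B4 at 4 weeks minus control, given without a test, are judged by size alone, so their lost calls appear below in the counts of members called. The count of members called at 2 weeks minus control, 1, was 0 with library total scaling, with the cardiomyocyte covariate and with the replicate block, and 0 to 1 on leaving out 1 library. ATP10A there ran from 1.09 to 1.48. At 4 weeks minus control the count of 1 was 0 with the 2 groups fitted alone, with the covariate and with the block, and 0 to 1 on leaving out 1 library, while ATP8B4 ran from 2.27 to 2.99. In aorta the count of 0 was 1 with DESeq2, and 0 to 1 on leaving out 1 library. Between control valve and aorta the count of 3 was 1 with no filter and with library totals, and 1 to 2 on leaving out 1 library. The cause of these changes was not tested. Scaling by library totals and leaving the 7-week libraries out of the shared fit were chosen after seeing the data.

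Genes called overall moved more. At 2 weeks minus control 4 genes became 965 with DESeq2 and 0 to 515 on leaving out 1 library. At 4 weeks minus control 319 became 771 and 0 to 791, at 7 weeks minus control 1245 became 2222 and 445 to 2261, and at 7 minus 2 weeks 4261 ran from 692 to 5168 over the other settings. At 4 minus 2 weeks 697 ran from 196 to 1507, at 7 minus 4 weeks 16 ran from 2 to 208, in aorta 23 ran from 18 to 408 and in myocardium 12 ran from 12 to 308. For the diet effect in valve against myocardium 68 ran from 23 to 548, and against aorta 8 ran from 5 to 83. Library totals shifted the median of all genes by up to 0.38 on the log2 scale, between control valve and myocardium.

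Replicate numbers did not pair the samples: of 24 same-number valve pairs, correlations of deviations ran from -0.34 to 0.13 and 2 exceeded 0.1. With the replicate block, genes called at 4 weeks minus control numbered 5, at 7 weeks minus control 663 and at 4 minus 2 weeks 264. It changed no other count of members called by over 1.5 times. The animal block, fitted for valve with myocardium and for the control tissues, gave ATP8B2, control valve minus control aorta, an adjusted p of 0.0776. It could not be fitted for valve with aorta, which share 1 animal.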

Other observations

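Between the control tissues, most of the genes that recognise or take up exposed phosphatidylserine were higher in valve and aorta than in heart muscle. Of 19 tested, 15 were higher in control valve than in control myocardium and 1 was lower, against 23.4% and 22.5% of all genes called higher and lower by edgeR. Between control aorta and control myocardium 14 were higher and 1 was lower, against 27% and 25.8% of all genes, and in both comparisons the lower gene was STAB1, a scavenger receptor. PROS1, a bridging protein that also serves in anticoagulation, had the smallest adjusted p of the list in both, with log2 fold changes of 1.82 ± 0.14 in valve minus myocardium (edgeR adjusted p = 1.24e-05) and 2.31 ± 0.15 in aorta minus myocardium (edgeR adjusted p = 2.39e-06). Against control aorta, control valve had 1 of these genes higher and 7 lower, against 13% and 9.19% of all genes.

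Of 7 genes tested from the list of lipid exporters, 4 were lower and 1 was higher in control valve than in control myocardium. In control aorta 5 were lower and 1 was higher. Of all genes, 22.5% were lower and 23.4% higher in valve, and 25.8% lower and 27% higher in aorta. ABCA7, a phospholipid exporter, had log2 fold changes of -4.20 ± 0.54 in valve minus myocardium and -6.83 ± 0.74 in aorta minus myocardium (edgeR adjusted p = 0.000249 and 3.40e-05). Both comparisons share the 3 control myocardium libraries.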
